A study of Homo sapiens with 6 samples.

Results

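The genes of MHC class I antigen presentation were followed in RNA sequencing of PA-1 cells, which were derived from a human ovarian teratocarcinoma and keep features of pluripotent cells. The set comprised 9 genes, taken by symbol from the 20494 genes of the table: B2M, HLA-B, HLA-C, HLA-E, TAP1, TAP2, TAPBP, PSMB8 and PSMB9. All 9 were found, and 6 of them had a mean of at least 1 RPKM (read number divided by gene length in kilobases and by library size) over the libraries. TAP2, PSMB8 and PSMB9 lay below that level. There were 6 libraries, 1 for each group. Cells of the RIPK1, RIPK2, RIPK3 and RIPK4 groups had received 8 µg of plasmid for the named receptor-interacting protein kinase for 48 h, and cells of the Wnt3a group had received 200 ng of this Wnt ligand for 16 h. Vector cells had received 8 µg of empty pCDNA3.1 plasmid for 48 h. The labels do not say whether Wnt3a cells also took a plasmid, so ligand, time and plasmid cannot be told apart in that comparison. No group has a replicate, so no p-value is given. The intervals below are 95% limits from read numbers, cover counting error only, and compare libraries rather than conditions.

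MHC class I molecules show peptides from proteins made inside the cell to CD8 T cells. Proteasomes cut the proteins, the TAP transporter carries the peptides into the endoplasmic reticulum, and tapasin holds empty class I molecules at the transporter until a peptide binds. Interferons raise most genes of the pathway in many cell types, and they bring inducible catalytic subunits into the proteasome. Embryonal carcinoma and pluripotent cells are known for low surface class I.

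Library totals lay between 19.5 M reads for RIPK1 and 17.2 M for Vector. RIPK3 reached 61.4 RPKM in its own library and at most 0.0384 RPKM elsewhere, and RIPK4 had 17.9 RPKM in its own library and no read elsewhere. RIPK2 had 27.4 RPKM in the RIPK2 library, against 8.50 to 11.8 RPKM in the other 5. RIPK1 had 16.6 RPKM in the RIPK1 library, against 9.35 to 13.4 RPKM in the other 5, the smallest gap of the 4 kinases. Of 14 leukocyte markers, 9 to 11 lay below 1 RPKM in each library, and PTPRC, the defining leukocyte gene, had no read in the kinase and Wnt3a libraries and 1 read in Vector. Of 11 markers of pluripotent and PA-1 cells, at most 3 lay below 1 RPKM in a library. NANOG, with at most 0.234 RPKM, and TDGF1, with no read, lay below it in every library.

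All 9 members were lowest in the RIPK1 library, and 8 of them were highest in the RIPK3 library. Over all genes with a mean of at least 1 RPKM, 21.0% were lowest in RIPK1 and 11.9% highest in RIPK3. HLA-E was the exception, with its highest value in Wnt3a, the library in which 23.3% of genes peaked. In these bulk libraries, fewer cells carrying a transcript and less transcript per cell cannot be told apart.

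**Figure D1:**
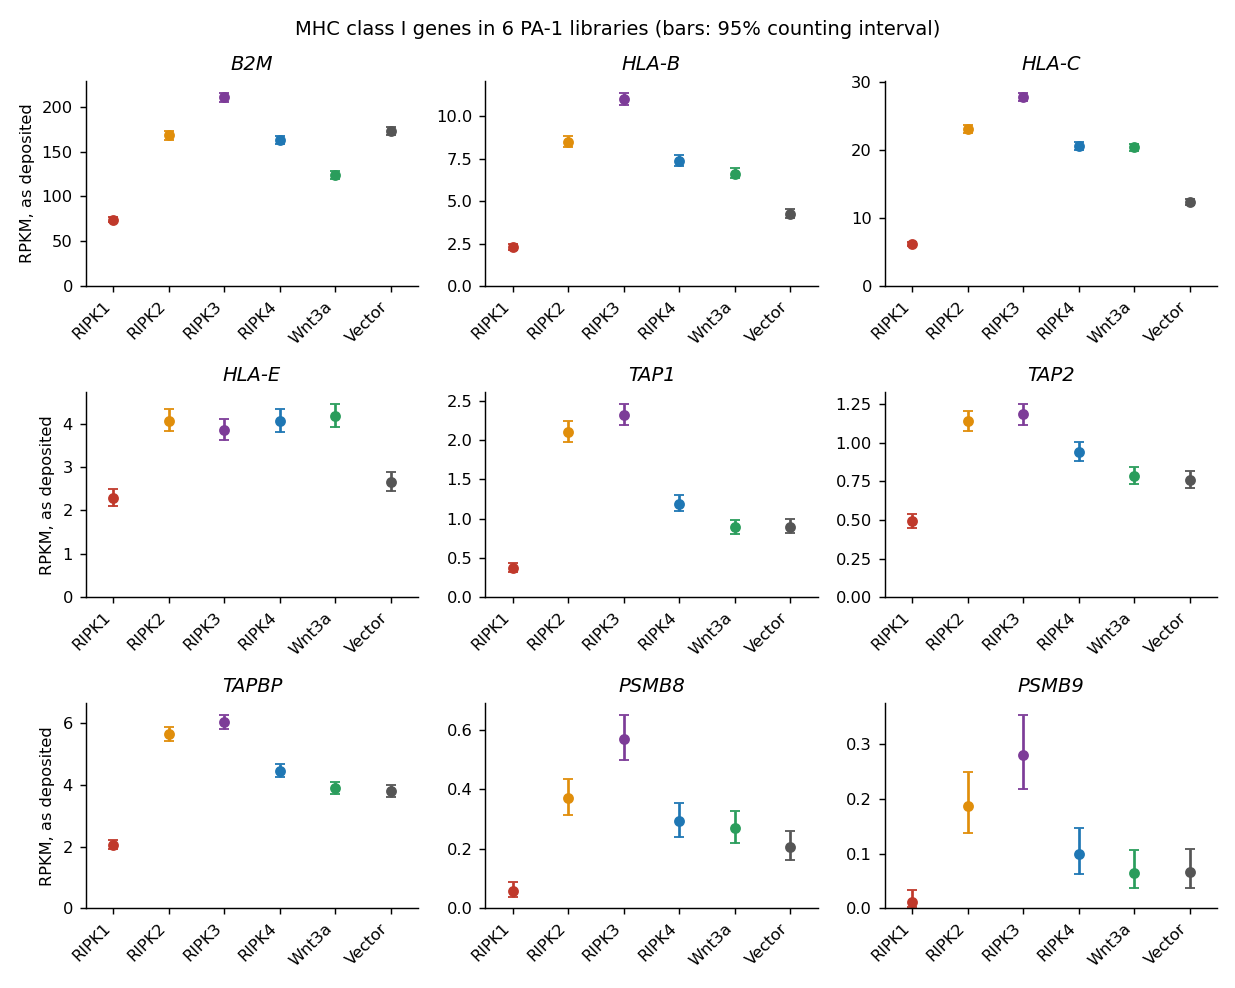
Deposited RPKM (y axis, from 0, a scale for each gene) of the 9 members in the RIPK1, RIPK2, RIPK3, RIPK4, Wnt3a and Vector libraries, with 95% counting intervals as bars. RIPK1 is the lowest point in every panel, and RIPK3 is the highest in every panel but that of HLA-E.

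B2M, the invariant light chain that every classical class I heavy chain needs to reach the surface, had the highest deposited RPKM of the members. It had 74.2 RPKM in RIPK1, 167.9 in RIPK2, 210.5 in RIPK3, 163 in RIPK4, 124 in Wnt3a and 173 in Vector. RIPK1 stood well below the rest and Wnt3a lay next above it, while RIPK2, RIPK4 and Vector lay close together. B2M was 2.33-fold lower in RIPK1 than in Vector (95% interval 2.22 to 2.45), and 48th from the lowest of 11881 genes by the difference of log2(RPKM + 1). It was 1.40-fold lower in Wnt3a than in Vector (1.34 to 1.46) and 1.22-fold higher in RIPK3 (1.17 to 1.26). The ratio of RIPK2 to Vector was 0.971, with an interval that includes 1 (0.934 to 1.01).

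HLA-B and HLA-C are classical heavy chains, which form the peptide groove with B2M. HLA-B had 2.28 RPKM in RIPK1, 8.49 in RIPK2, 11.0 in RIPK3, 7.37 in RIPK4, 6.62 in Wnt3a and 4.26 in Vector. HLA-C had 6.22 RPKM in RIPK1, 23.0 in RIPK2, 27.7 in RIPK3, 20.6 in RIPK4, 20.4 in Wnt3a and 12.4 in Vector. The order of the libraries was the same for both genes, and Vector lay above RIPK1 and below all the others, unlike its place for B2M. HLA-B was 1.86-fold lower in RIPK1 than in Vector (1.70 to 2.05), and HLA-C was 1.99-fold lower (1.87 to 2.11). In RIPK3, HLA-B was 2.59-fold higher than in Vector (2.42 to 2.77) and HLA-C 2.25-fold higher (2.15 to 2.34). HLA-C in RIPK4 and Wnt3a differed by a ratio of 1.01, with an interval that includes 1 (0.973 to 1.05).

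HLA-E, a less variable heavy chain that shows signal-sequence peptides to natural killer cell receptors, varied least as a ratio. It had 2.29 RPKM in RIPK1, 4.07 in RIPK2, 3.85 in RIPK3, 4.06 in RIPK4, 4.18 in Wnt3a and 2.65 in Vector. The libraries formed a low pair, RIPK1 and Vector, and a high group of 4 in which no neighbours in the order differed beyond their counting interval. The low pair differed by 1.16-fold (1.03 to 1.30), and the highest library exceeded the lowest by 1.82-fold. Part of each HLA gene cannot be assigned with certainty: 2.54% of the 50-base windows of the HLA-B transcript, 6.79% of those of HLA-C and 5.13% of those of HLA-E also occur in transcripts of other genes, chiefly other HLA genes, before any difference between the alleles of this line and the reference.

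TAP1 and TAP2 are the paired subunits of the peptide transporter. TAP1 had 0.374 RPKM in RIPK1, 2.10 in RIPK2, 2.32 in RIPK3, 1.19 in RIPK4, 0.893 in Wnt3a and 0.898 in Vector. TAP2 had 0.492 RPKM in RIPK1, 1.14 in RIPK2, 1.18 in RIPK3, 0.942 in RIPK4, 0.789 in Wnt3a and 0.761 in Vector. Both were high in RIPK2 and RIPK3 and lowest in RIPK1, with Wnt3a beside Vector, and TAP1 spanned the wider range, 6.20-fold between its extreme libraries against 2.41-fold for TAP2. TAP1 was 2.40-fold lower in RIPK1 than in Vector (2.01 to 2.88), 2.34-fold higher in RIPK2 (2.08 to 2.64) and 2.58-fold higher in RIPK3 (2.30 to 2.91). For TAP2 these values were 1.55-fold lower (1.38 to 1.74), 1.50-fold higher (1.36 to 1.65) and 1.56-fold higher (1.42 to 1.71). Of the TAP2 windows of 50 bases, 35.8% also occur in another annotated transcript, so its level is less certain than that of TAP1, with 1.07%.

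TAPBP encodes tapasin, which bridges the transporter and the class I molecule. It had 2.06 RPKM in RIPK1, 5.65 in RIPK2, 6.03 in RIPK3, 4.45 in RIPK4, 3.88 in Wnt3a and 3.79 in Vector. The order was that of HLA-B, HLA-C and TAP2, and the value in RIPK1 was again apart, 1.84-fold lower than in Vector (1.69 to 2.0004). RIPK3 exceeded RIPK2 by a ratio of 1.07 (1.01 to 1.13), and each exceeded Vector, by 1.59-fold (1.49 to 1.70) and 1.49-fold (1.40 to 1.59) in that order.

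PSMB8 and PSMB9 encode inducible catalytic subunits of the immunoproteasome, which take the places of PSMB5 and PSMB6. PSMB8 had 0.0579 RPKM in RIPK1, 0.369 in RIPK2, 0.569 in RIPK3, 0.292 in RIPK4, 0.268 in Wnt3a and 0.205 in Vector. PSMB9 had 0.0116 RPKM in RIPK1, 0.187 in RIPK2, 0.280 in RIPK3, 0.0986 in RIPK4, 0.0650 in Wnt3a and 0.0654 in Vector. These were the least abundant members and the ones with the widest relative range, 9.82-fold for PSMB8 and 24.2-fold for PSMB9 between RIPK3 and RIPK1. The reads behind PSMB9 were few: 3 in RIPK1, 48 in RIPK2, 71 in RIPK3, 24 in RIPK4, 16 in Wnt3a and 15 in Vector. Its ratio of RIPK1 to Vector was 0.177, with a wide interval (0.0328 to 0.625), and PSMB9 was 4.28-fold higher in RIPK3 than in Vector (2.43 to 8.04). PSMB8 was 3.54-fold lower in RIPK1 than in Vector (2.19 to 5.94) and 2.77-fold higher in RIPK3 (2.12 to 3.67).

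**Figure D2:**
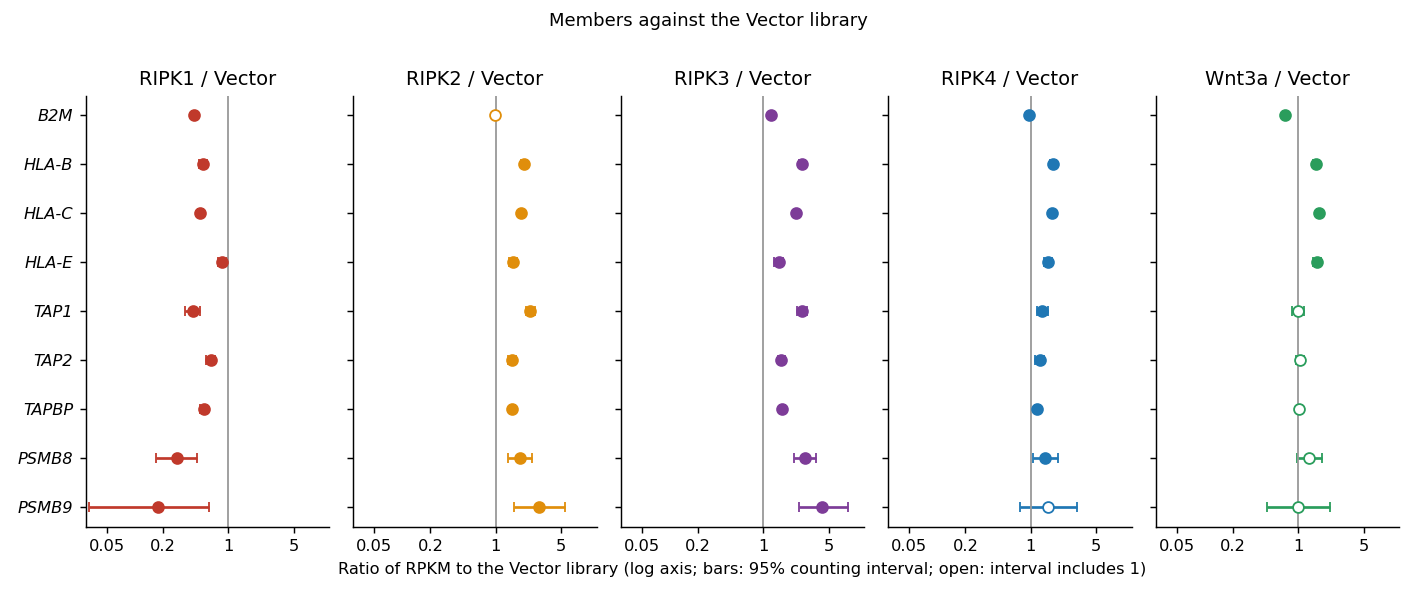
Ratio of each member's RPKM to that in Vector (log axis) in the RIPK1, RIPK2, RIPK3, RIPK4 and Wnt3a libraries, with 95% counting intervals and open points where the interval includes 1. All 9 points lie below 1 in RIPK1 and above 1 in RIPK3, and in Wnt3a the 3 HLA genes lie above 1 while B2M lies below it.

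The gene lengths behind these values bear on their scale. The length by which the authors divided could be worked out from the printed digits, and for genes within the MHC it was several times the length of the transcript in GENCODE release 29. Among 100 protein-coding genes of chromosome 6 from TRIM27 to KIFC1, bounds set after the values were seen, the median ratio of the 2 lengths was 7.72, and 95 of the genes had a ratio of at least 4. Over all other genes the median was 1.07, and 0.433% reached 4. Where several lengths suited the digits, the one nearest the GENCODE length was taken, inside and outside the MHC, which draws the ratio towards 1. The ratios near 1 outside the MHC may in part reflect that choice, and how far was not tested. HLA-B was divided by 16091 bases, against a transcript of 1547 bases, PSMB9 by 13289 against 782, and TAP1 by 24920 against 2959. The ratio ran from 4.86 for HLA-E to 17.0 for PSMB9 over the 8 members of chromosome 6, while B2M, on chromosome 15, had 1.71. The lengths of HLA-C and B2M are the least settled, since 4 and 3 unrelated lengths suited their digits. How the longer lengths arose was not tested. The hg19 assembly, which the submitters' processing notes name, carries alternative copies of the MHC, and the gene annotation used is not given in the sources used here.

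**Figure D3:**
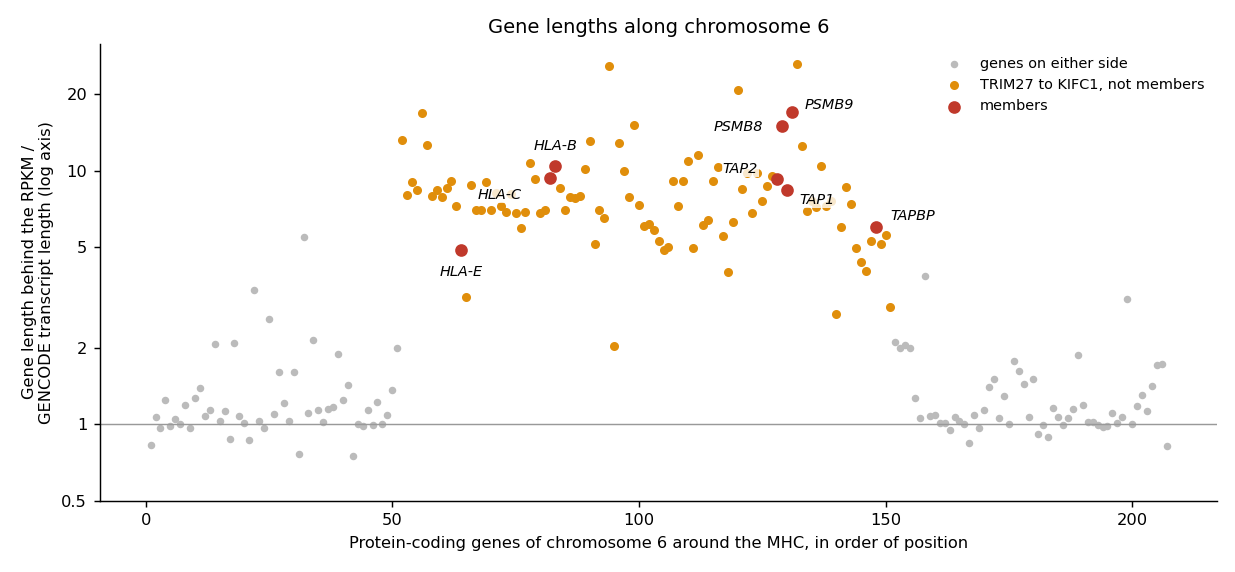
Length behind the RPKM over the GENCODE transcript length (y axis, log scale) for protein-coding genes of chromosome 6 around the MHC, in order of position (x axis), with the members in red. Genes from TRIM27 to KIFC1 form a block with a median ratio of 7.72, and genes on either side lie near 1. Where several lengths suited the digits, the one nearest the GENCODE length is shown, which draws points towards 1.

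A ratio of 1 gene between libraries does not depend on its length, but its level and its difference of log2(RPKM + 1) do. Restated to the GENCODE transcript, HLA-C had 58.4 RPKM in RIPK1, 216 in RIPK2, 260.6 in RIPK3, 193 in RIPK4, 191 in Wnt3a and 116 in Vector. B2M on that scale had 127 RPKM in RIPK1, 287 in RIPK2, 360.04 in RIPK3, 279 in RIPK4, 212 in Wnt3a and 296 in Vector. With the shortest accepted lengths, the ratio of B2M to HLA-C per transcript length was 2.17 in RIPK1, 1.33 in RIPK2, 1.38 in RIPK3, 1.44 in RIPK4, 1.11 in Wnt3a and 2.55 in Vector. Over all 12 pairs of accepted lengths it ran from 1.51 to 3.35 in RIPK1, 0.923 to 2.05 in RIPK2, 0.961 to 2.13 in RIPK3, 1.01 to 2.23 in RIPK4, 0.771 to 1.71 in Wnt3a and 1.77 to 3.94 in Vector. Which of the 2 genes was the more abundant is therefore not settled in RIPK2, RIPK3 and Wnt3a. The order of the libraries does not depend on the lengths: the ratio was lowest in Wnt3a and highest in Vector. On the same scale all 9 members had a mean of at least 1 RPKM, from 2.005 for PSMB9 to 260.1 for B2M.

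Counts of genes at least 2-fold apart are by the difference of log2(RPKM + 1). For low genes this is smaller than the ratio of RPKM. On the deposited scale, 1 of 9 members, B2M, was at least 2-fold lower in RIPK1 than in Vector, as 0.547% of all 11881 genes were. At GENCODE lengths these were B2M, TAP1 and PSMB8, 3 of 9, against 0.553% of all genes. By ratio of RPKM, TAP1, PSMB8 and PSMB9 were also more than 2-fold lower, at 2.40-fold, 3.54-fold and 5.66-fold. All 9 members were lower by some amount, as 47.8% of all genes were, and their median difference of log2(RPKM + 1) was -0.47, against 0.01 over all genes. At GENCODE lengths the members' median was -0.87.

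In RIPK3, HLA-B and HLA-C were at least 2-fold higher than in Vector on the deposited scale, 2 of 9, against 1.48% of all genes. At GENCODE lengths 5 members were, HLA-B, HLA-C, TAP1, PSMB8 and PSMB9, against 1.61% of all genes. These 5 genes were also more than 2-fold higher by ratio of RPKM. All 9 were higher by some amount, as 52.2% of all genes were, with a median difference of 0.41 as deposited, against 0.02 over all genes, and 1.16 at GENCODE lengths. With the trend of the differences over transcript GC content removed, HLA-B came to 0.98 and HLA-C to 0.88 on the deposited scale, so that no member was 2-fold higher, against 1.07% of all genes. At GENCODE lengths with that trend removed, HLA-C came to 0.93 and the other 4 stayed at least 2-fold higher, against 1.14% of all genes.

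In RIPK2, 8 of 9 members were higher than in Vector, against 49.1% of all genes, and B2M was not. None was at least 2-fold higher as deposited, against 1.60% of all genes, and TAP1 alone was at GENCODE lengths, against 1.72%. With the GC trend removed at GENCODE lengths, TAP1 came to 0.88 and no member was 2-fold higher, against 1.12% of all genes. The median difference was 0.47 as deposited, against -0.01 over all genes. The ratio of RIPK3 to RIPK2 was highest for PSMB8, 1.54 (1.24 to 1.91), and its interval included 1 for HLA-E, 0.948 (0.865 to 1.04), and TAP2, 1.04 (0.958 to 1.13).

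RIPK4 lay nearer to Vector. Again 8 of 9 members were higher, against 55.6% of all genes, with a median difference of 0.19, against 0.05 over all genes, and no member was 2-fold higher, against 0.404% of all genes. Removing the GC trend on the deposited scale changed the sign of 5 members: B2M came to 0.14, TAP1 to -0.05, TAPBP to -0.07, PSMB8 to -0.11 and PSMB9 to -0.18. That left 5 of 9 members higher, against 50.3% of all genes, and a median of 0.10. The HLA genes led: HLA-B was 1.73-fold higher than in Vector (1.61 to 1.86), HLA-C 1.66-fold (1.59 to 1.74) and HLA-E 1.53-fold (1.38 to 1.70). TAPBP was 1.18-fold higher (1.10 to 1.26), and B2M had a ratio of 0.943 (0.906 to 0.982). For PSMB9 the ratio was 1.51, with an interval that includes 1 (0.758 to 3.09).

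The Wnt3a library split the members. HLA-B was 1.56-fold higher than in Vector (1.45 to 1.67), HLA-C 1.65-fold higher (1.58 to 1.72) and HLA-E 1.58-fold higher (1.42 to 1.75). The genes of peptide transport and loading lay beside Vector: the ratio was 0.994 for TAP1 (0.863 to 1.15), 1.04 for TAP2 (0.934 to 1.15) and 1.03 for TAPBP (0.956 to 1.10). With B2M lower, 6 of 9 members were higher, against 53.3% of all genes, the median difference was 0.03, against 0.04 over all genes, and none was 2-fold higher, against 0.673% of all genes. With the GC trend removed on the deposited scale, the HLA genes alone were higher, 3 of 9, against 50.6% of all genes. RIPK4 set directly against Wnt3a, where time and plasmid also differ, had 8 of 9 members higher, against 54.9% of all genes. In that pair B2M had a ratio of 1.32 (1.26 to 1.38) and TAP1 of 1.33 (1.17 to 1.52), while the interval included 1 for HLA-C, HLA-E, PSMB8 and PSMB9. The 5 comparisons against Vector share that 1 library.

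The GC content of transcripts moved with 4 of these comparisons. Over 11779 genes, the difference from Vector followed GC with a Spearman rho of -0.09 in RIPK1, 0.67 in RIPK2, 0.55 in RIPK3, 0.67 in RIPK4 and 0.70 in Wnt3a. Genes share the libraries, so these values describe the libraries. Of the members, 7 had a GC content between 54.8% and 60.2%, TAP2 had 49.1% and B2M 39.1%. With the trend removed at GENCODE lengths, all 9 members remained lower in RIPK1, with a median of -0.86, and all 9 higher in RIPK3, with a median of 0.93. In Wnt3a, HLA-B came to 0.28 in place of 0.63, HLA-C to 0.35 in place of 0.72 and HLA-E to 0.37 in place of 0.62, while TAP1 came to -0.32 and TAPBP to -0.28, and B2M came to -0.10 in place of -0.48. In RIPK4 the HLA genes came to 0.38 to 0.49, in place of 0.58 to 0.78, and TAP1 to 0.11 in place of 0.37, while TAPBP came to -0.04. B2M came to 0.30 in RIPK2 and 0.14 in RIPK4, above Vector where it had lain below.

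**Figure D4:**
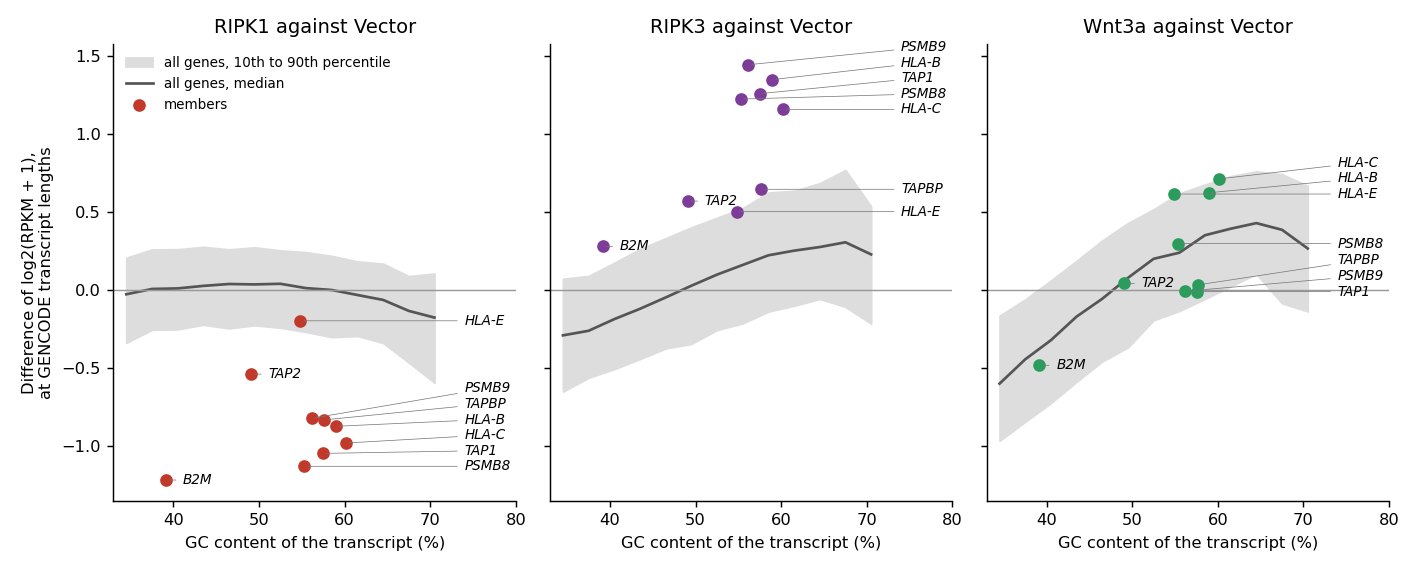
Difference of log2(RPKM + 1) from Vector at GENCODE transcript lengths (y axis) against the GC content of the transcript (x axis) in RIPK1, RIPK3 and Wnt3a, with the median and the 10th to 90th percentile of all genes in bins of 3 percentage points. The members lie below the median line in RIPK1 and above it in RIPK3, while in Wnt3a the median line rises, with the 3 HLA genes above it and TAP1, TAPBP and PSMB9 below.

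HLA-F and HLA-G, nonclassical heavy chains, had at most 54 and 18 reads in a library. Of the genes of the TRIM27 to KIFC1 region with a mean of at least 1 RPKM, 72 are no members. Their median difference was -0.01 in RIPK1 and 0.13 in RIPK3, and -0.01 and -0.05 with the GC trend removed. None of them was at least 2-fold lower in RIPK1, against 0.547% of all genes, so that count does not set them apart. The longer lengths behind these genes also make their differences of log2(RPKM + 1) smaller.

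Inducible proteasome subunits stood beside their constitutive partners as follows. Per transcript length, PSMB8 amounted to 0.593% of PSMB5 in RIPK1, 3.47% in RIPK2, 5.23% in RIPK3, 2.86% in RIPK4, 2.32% in Wnt3a and 2.50% in Vector. PSMB9 amounted to 0.148% of PSMB6 in RIPK1, 2.02% in RIPK2, 2.90% in RIPK3, 1.04% in RIPK4, 0.658% in Wnt3a and 0.962% in Vector. Constitutive subunits thus exceeded the inducible ones in every library. PSMB10, the inducible partner of PSMB7, lies outside the MHC and differed: it had a ratio of RIPK1 to Vector of 1.08 (0.895 to 1.31) and amounted to 5.73% of PSMB7 in RIPK1, against 5.58% in Vector. Of 14 constitutive core genes, none was at least 2-fold apart from Vector in any of the 5 comparisons. Over all genes that share was 0.842% in RIPK1, 2.30% in RIPK2, 2.06% in RIPK3, 0.791% in RIPK4 and 2.10% in Wnt3a, so a count of 0 of 14 does not set these genes apart.

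PSME1 and PSME2, which form the interferon-inducible activator cap of the proteasome, had 83.9 and 86.8 RPKM in RIPK1, against 135.5 and 143 RPKM in Vector, and were 1.62-fold (1.52 to 1.71) and 1.65-fold (1.57 to 1.74) lower. LAP3, a cytosolic leucine aminopeptidase, was 1.62-fold lower in RIPK1 (1.54 to 1.71). ERAP2, which trims peptides in the endoplasmic reticulum, had 1.12 RPKM in RIPK1, 4.14 in RIPK2, 5.16 in RIPK3, 3.68 in RIPK4, 2.53 in Wnt3a and 3.36 in Vector. It was the only one of 10 loading and trimming genes at least 2-fold lower in RIPK1, at 3.01-fold (2.44 to 3.72), against 0.547% of all genes, and its order of libraries was that of B2M except that Vector lay below RIPK2 and RIPK4. The chaperones of the list showed no such gap. CALR, calreticulin, had a ratio of RIPK1 to Vector of 1.09 (1.07 to 1.10), and PDIA3, its disulfide partner, of 0.910 (0.886 to 0.935). No recovered length was used for CALR and PDIA3, so their reads were approximated from the GENCODE length, and these intervals are approximate. LNPEP, an endosomal aminopeptidase, went the other way in RIPK1, 1.91-fold higher (1.72 to 2.13), and was 1.94-fold higher in RIPK3 (1.74 to 2.16). Its lowest value was in Vector, 2.04 RPKM, against 2.52 in Wnt3a and 3.45 to 3.96 in the kinase libraries.

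IRF9, a transcription factor of the type I interferon response, was 1.88-fold lower in RIPK1 (1.70 to 2.07) and 1.66-fold lower in Wnt3a (1.51 to 1.83). IRF1, an interferon-induced activator, had 1.60 RPKM in RIPK1, 4.30 in RIPK2, 4.38 in RIPK3, 3.12 in RIPK4, 3.03 in Wnt3a and 2.51 in Vector. IRF9 thus stood low in Wnt3a, as B2M did, while IRF1 followed the order of HLA-B except that RIPK2 and RIPK3 lay close together.

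NLRC5, the transactivator of class I genes, was measured with few reads. It had 1 read in RIPK1, 67 in RIPK2, 101 in RIPK3, 36 in RIPK4, 25 in Wnt3a and 26 in Vector. By RPKM the order was that of TAP1 and PSMB9, with RIPK3 highest and RIPK1 at a ratio to Vector of 0.0340 (0.000829 to 0.207). In RIPK3 it was 3.51-fold higher than in Vector (2.26 to 5.63). CIITA, the transactivator of class II genes, had at most 6 reads in a library. As deposited, 13 of 14 class II pathway genes lay below 1 RPKM in each library. The exception was CD74, the invariant chain, with 4.08 RPKM in RIPK1, 7.32 in RIPK3, 9.75 in Wnt3a and 5.32 in Vector. At GENCODE lengths, HLA-DMA and HLA-DMB, which lie in the MHC, also passed 1 RPKM, with means of 7.95 and 8.94 RPKM.

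**Figure D5:**
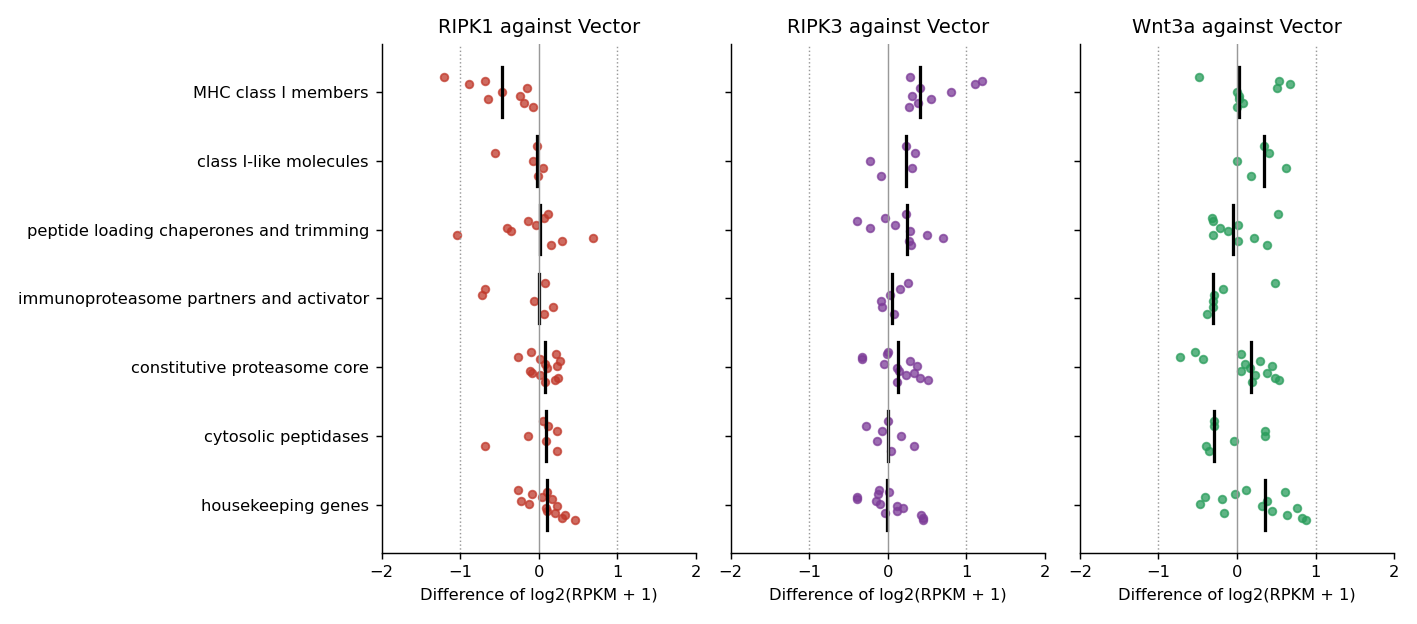
Difference of log2(RPKM + 1) from Vector, as deposited (x axis), in RIPK1, RIPK3 and Wnt3a, with a black bar at each list's median and dotted lines at 2-fold. Rows are the 9 members and, from part of the other pathway and control lists, the genes with a mean of at least 1 RPKM. The regulators, other class I heavy chains, class II pathway and cell markers are not shown. In RIPK1 the median of the 9 members is -0.47 and that of 14 housekeeping genes 0.11, in RIPK3 these medians are 0.41 and -0.01, and in Wnt3a 0.03 and 0.35.

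Markers of other cells moved with part of this pattern. The summed level of 10 fibroblast and endothelial markers was 100.2 RPKM in RIPK1, 179 in RIPK2, 194 in RIPK3, 139 in RIPK4, 153 in Wnt3a and 107 in Vector, and 4 of the 10 were below 1 RPKM in each library. COL1A1 was 2.54-fold higher in RIPK3 than in Vector (2.45 to 2.65). The summed level of 14 leukocyte markers was 7.54 RPKM in RIPK1, 13.3 in RIPK2, 12.1 in RIPK3, 11.2 in RIPK4, 11.2 in Wnt3a and 7.42 in Vector. CD68, a macrophage marker among them, was 2.52-fold higher in RIPK2 than in Vector (1.88 to 3.43) and 2.48-fold higher in RIPK3 (1.84 to 3.37). The summed level of 11 pluripotent and PA-1 markers was 1237 RPKM in RIPK1, 803 in RIPK2, 845 in RIPK3, 1199 in RIPK4, 1057 in Wnt3a and 1184 in Vector. PODXL and LIN28A, with means of 520 and 313 RPKM, weighed most in that sum. Of the 9 markers with a mean of at least 1 RPKM, 5 were lower in RIPK4 than in Vector and 4 higher. In Wnt3a 7 were lower and 2 higher. Over all genes, 44.3% and 46.7% were lower in RIPK4 and Wnt3a. SOX2 had 149 RPKM in Vector, 78.1 in RIPK4 and 48.1 in Wnt3a. The part of these differences in the members' values was not tested.

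Patterns across the 6 libraries were compared by the root mean square distance between gene-centred values of log2(RPKM + 1), as deposited, for the 5 members that spanned at least 1 on that scale. The candidates were protein-coding genes with a mean of at least 5 RPKM. Nearest to B2M were SAMHD1, HES4 and C20orf118, with SAMHD1 at a distance of 0.09. HLA-B and HLA-C were each other's nearest gene, at 0.11, followed by SHISA5 and UBE2L6 for HLA-B and by LY6E and SHISA5 for HLA-C. Nearest to TAP1 were KLF10, S100A11 and STAT2, and nearest to TAPBP were OGFR, ETV5 and BST2, both at distances of 0.06 to 0.08. SAMHD1 had 19.2 RPKM in RIPK1, 57.3 in RIPK3, 28.6 in Wnt3a and 47.5 in Vector, the order of B2M in these 4 libraries. With 6 libraries such distances are a description, and the longer lengths narrow the spans of the MHC genes by construction.

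Since the members were low together in RIPK1 and high together in RIPK3, the bases before their starts were read from RefSeq windows of 250 bases, which matched 8 of the 9 members by gene identifier (build GRCh38.p14). HLA-E is named only. Searched on both strands were GAAANGAAA and GAAANNGAA, written after the interferon-stimulated response element, TTCNNNGAA, after the gamma-activated site, GGGGANNCC, after the enhancer A of class I genes, and CCAAT. The windows of B2M, TAP1, TAP2 and TAPBP held GAAANNGAA, 4 of 8, against 6.88% of 35116 windows, and no member held GAAANGAAA, against 2.69%. B2M, TAP1 and TAPBP each held a pair of overlapping matches, which began -144 and -138 bases from the start in B2M, -133 and -127 in TAP1, on the opposite strand, and -20 and -14 in TAPBP. HLA-B and PSMB8 held GGGGANNCC, which occurs in 7.85% of windows, and no member held TTCNNNGAA, which occurs in 6.57%. CCAAT was found in B2M, HLA-B, HLA-C, TAP1 and PSMB9, and in 32.0% of windows. TAP1 and PSMB9 are read in opposite directions from starts 487 bases apart, so their windows meet and share 13 bases, and the CCAAT of both lies in these bases and is 1 match, not a separate one for each gene. Shown are the 3 windows with a pair of matches and that of PSMB9, 5′ to 3′ along each gene, with the bases of GAAANNGAA on either strand in capitals:
B2M (chr15:44711267-44711516, plus strand): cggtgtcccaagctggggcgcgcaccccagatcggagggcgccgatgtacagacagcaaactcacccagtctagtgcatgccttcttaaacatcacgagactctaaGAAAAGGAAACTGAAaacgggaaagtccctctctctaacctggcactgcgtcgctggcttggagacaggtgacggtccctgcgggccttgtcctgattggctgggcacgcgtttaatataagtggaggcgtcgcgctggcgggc
TAP1 (chr6:32853705-32853954, minus strand): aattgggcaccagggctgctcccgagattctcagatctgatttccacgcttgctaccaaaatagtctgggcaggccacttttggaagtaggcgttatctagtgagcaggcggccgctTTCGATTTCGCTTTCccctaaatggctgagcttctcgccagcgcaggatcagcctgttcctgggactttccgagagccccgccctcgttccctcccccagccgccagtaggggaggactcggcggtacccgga
PSMB9 (chr6:32853942-32854191, plus strand): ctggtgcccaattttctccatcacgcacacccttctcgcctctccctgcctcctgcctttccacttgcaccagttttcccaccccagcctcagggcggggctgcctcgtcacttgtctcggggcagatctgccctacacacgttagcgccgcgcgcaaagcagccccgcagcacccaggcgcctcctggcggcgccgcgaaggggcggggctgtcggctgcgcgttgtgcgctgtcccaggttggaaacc
TAPBP (chr6:33314079-33314328, minus strand): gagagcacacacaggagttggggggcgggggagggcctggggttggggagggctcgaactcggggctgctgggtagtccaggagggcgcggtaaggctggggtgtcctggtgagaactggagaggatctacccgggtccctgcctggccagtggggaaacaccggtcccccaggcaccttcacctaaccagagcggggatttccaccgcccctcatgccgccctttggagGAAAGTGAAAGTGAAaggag
A match is a run of letters and was not tested as a site. The 4 genes with a match had ratios of RIPK1 to Vector of 0.429, 0.417, 0.646 and 0.544 for B2M, TAP1, TAP2 and TAPBP. Those with a window and no such match had 0.537, 0.504, 0.282 and 0.177 for HLA-B, HLA-C, PSMB8 and PSMB9. Outside the members, PSMB10 held GAAANNGAA at -21 bases from its start and had 2.63 RPKM in RIPK1 and 2.43 in Vector. PSMB5 was searched too and held no GAAANNGAA. The windows of HLA-B and HLA-C both hold gagtttcacttct, in which tttc and then ttc lie 2 bases apart. On the opposite strand GAAANNGAA has ttc first, so the search passed over this run. The TAP1 pair lies between the starts of TAP1 and PSMB9, but outside the 250 bases searched for PSMB9. The lack of a match therefore does not show that HLA-B, HLA-C or PSMB9 lacks an interferon element.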

How the data were processed

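RNA of 6 PA-1 libraries, 1 for each group, was sequenced, and each group is the value its label gives under transfection. The deposited table gives the authors' RPKM for 20494 genes, 1 column for each library without pooling, per the file headers, and 0 columns were left unmapped. GSNAP, DESeq and hg19 are named in the submitters' processing notes, with no role or version. The members and gene lists were chosen with earlier results of these data known.

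Whole reads and gene lengths were recovered from the printed 5 significant digits: for each gene the lengths from 15 to 80000 bases were tried. A length was accepted if it gave whole reads in all 6 libraries within rounding. Of the accepted lengths, the one nearest the GENCODE transcript length was taken, or the shortest where GENCODE gave none. A length was used only where fewer than 0.2 lengths would pass by accident. This gave reads for 16827 genes (82.1%), and 96.3% of the 11881 genes with a mean of at least 1 RPKM. Reads of other genes, CALR and PDIA3 among them, were approximated from the GENCODE transcript length where there was one. On simulated data, drawn with lengths near the GENCODE ones, 99.7% of 16791 solved genes had exact reads. Differences are of log2(RPKM + 1). With 1 library a group no test was run, and "2-fold" is a size threshold on that scale. Intervals are exact binomial 95% limits on read ratios, and without molecular identifiers reads may repeat a molecule. A floor of 3 reads came to 0.0769 to 0.0870 RPKM for a length of 2 kb, and to less for the longer lengths behind the MHC genes. GENCODE release 29 gave transcript length and GC content, and RefSeq gave gene order and the protein-coding class. Restating RPKM to GENCODE lengths was added after the lengths were seen. The GC trend was a lowess curve (fraction 0.3). Named genes are all members, the 4 of each list with the largest difference, and a few pathway genes fixed by name. Some genes of the lists are not reported here. Python 3.11.15, numpy 2.4.6, scipy 1.17.1, pandas 2.3.3, statsmodels 0.14.6 and matplotlib 3.10.9 were used.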

Additional observations from a re-analysis of the deposited data

How the results depend on the processing

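In RIPK1 and RIPK3 the direction of all 9 members held under every alternative run (pseudocounts of 0.1 and 0.01, median-ratio scaling, GC trend removed, GENCODE lengths, and GENCODE lengths with the GC trend removed). In RIPK1 the members at least 2-fold lower numbered 2 and 4 with pseudocounts of 0.1 and 0.01, against 0.943% and 1% of all genes, and 3 at GENCODE lengths with or without the GC trend, while the median was -0.87 and -0.99 with these pseudocounts, -0.87 at GENCODE lengths and -0.86 there with the trend removed. In RIPK2 the members at least 2-fold higher numbered 1 and 2 with the 2 pseudocounts, against 2.92% and 3.05% of all genes, 1 at GENCODE lengths and 0 there with the GC trend removed, and the median was 0.62 and 0.82, 0.68 at GENCODE lengths and 0.30 as deposited with the GC trend removed. In RIPK3 the 2-fold higher members numbered 5 with either pseudocount, against 2.53% and 2.70% of all genes, 5 at GENCODE lengths, 4 there with the GC trend removed, and 0 as deposited with the trend removed, and the median was 1.13 and 1.17 with the pseudocounts, 1.16 at GENCODE lengths and 0.93 there with the trend removed. In RIPK4 the median was 0.36 and 0.49 with the pseudocounts, 0.37 at GENCODE lengths and 0.10 with the GC trend removed. In Wnt3a it was -0.10 with the GC trend removed. For RIPK4 against Wnt3a it was 0.19 and 0.20 with the pseudocounts, 0.19 at GENCODE lengths and 0.24 there with the GC trend removed. Of 54 member values, removing the GC trend changed the sign of 11 (5 of them in RIPK4, and none in RIPK1 or RIPK3), and median-ratio scaling of 2, TAPBP in Wnt3a and HLA-C in RIPK4 against Wnt3a. The filter on low values bears only on the share of all genes: without it, 0.361% of genes were at least 2-fold lower in RIPK1, against 0.547% with it. The cause of the changes under GC removal was not tested. A smaller pseudocount or a shorter length enlarges differences of low genes by construction. Of the values given as ratios, PSMB9 in RIPK1, with 3 reads, is at the floor of 3 reads, and NLRC5 in RIPK1, with 1 read, is below it.

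No paired analysis was possible because each group has 1 library. Leaving out a replicate was not run, since no group has a second library.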
